A study of Homo sapiens with 8 samples.

Results

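The 42 genes described here are interferon-stimulated genes (ISGs) that lie outside MHC class I antigen presentation. They were chosen by name and not by a measured value, though earlier results of these data were known. All 42 symbols matched 1 NCBI gene number each among the 25702 genes of the count files. A total of 41 passed the filter on low counts, which kept 14333 genes for testing. The member that did not pass, TRIM22, had 18 reads over all libraries. RNA-seq was made from SUIT2, an established human line of pancreatic ductal adenocarcinoma (PDA), a tumour of the duct-like cells of the pancreas. Every library came from cells given a short hairpin RNA (shRNA), and no untreated parental library was analysed here. The hairpin was a scramble sequence in 4 libraries (shScr), 1 EN1 construct in 2 libraries (shEN1 #1) and another EN1 construct in 2 libraries (shEN1 #2), so that the comparison asks what loss of EN1, a homeobox transcription factor, does to these cells. The labels give no genotype, time point, dose or batch, and nothing in them says that replicates were separate cultures, so a p-value measures only the spread between these libraries.

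Interferons are cytokines that cells release when they sense viral or other foreign nucleic acid. Type I and type III interferons act through JAK kinases on a complex that holds STAT2 and IRF9 and binds the interferon-stimulated response element (ISRE) in promoters, while type II interferon acts mainly through the gamma-activated site (GAS). The genes turned on include sensors of RNA, the ubiquitin-like protein ISG15 and its enzymes, and effectors that block viral entry, translation and release. In tumour cells a low level of many of these genes is present without infection.

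The response elements of 8 members that hold an ISRE are shown first, as examples of the library patterns described further on. OASL, SAMD9L, UBE2L6, OAS1 and STAT2, which were among the most variable members, had no ISRE in the window searched and are not shown. An ISRE was counted where GAAANNGAAA stood on either strand between 250 bases before and 50 bases after the gene's start, and overlapping copies were counted separately. By this rule 25 of the 42 promoters (59.5%) held an ISRE, against 654 of 19881 protein-coding promoters (3.29%). A GAS, TTCNNNGAA, which reads the same on both strands and can overlap an ISRE, stood in 12 of the 42 (28.6%) and in 1291 of all promoters (6.49%). Of the 42 promoters, 12 held 2 ISRE copies, 4 held 3, and 11 held neither element. A match describes letters in the window, not binding, and a window without a match says nothing about the factor. The stretches below are of genome build GRCh37 (hg19), read 5′ to 3′ on the gene's strand, with each complete ISRE in capitals and the place of its first base counted from the start of the canonical transcript. IFIT1, IFIT3 and ISG15 stand for genes that were highest in shScr 3 and shEN1 #1 replicate 1, IFI6 and IFI27 for genes highest in shScr 4 and shEN1 #2 replicate 1, IFIH1 and PARP14 for genes lowest in those libraries, and HERC5 is the member with the smallest p-value of any comparison.
IFIT1 (chr10:91152257-91152306, plus strand, copies at -116 and -103): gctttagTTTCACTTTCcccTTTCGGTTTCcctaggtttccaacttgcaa
IFIT3 (chr10:91087612-91087661, plus strand, copy at -122): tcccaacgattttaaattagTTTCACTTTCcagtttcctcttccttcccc
ISG15 (chr1:948750-948799, plus strand, overlapping copies at -113 and -107): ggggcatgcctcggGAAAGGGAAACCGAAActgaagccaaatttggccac
IFI6 (chr1:27998767-27998818, minus strand, copies at -115 and -93): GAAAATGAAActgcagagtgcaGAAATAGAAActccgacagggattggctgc
IFI27 (chr14:94576967-94577016, plus strand, copies at -187 and -174): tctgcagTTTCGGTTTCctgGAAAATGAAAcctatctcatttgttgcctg
IFIH1 (chr2:163175195-163175235, minus strand, copy at -21): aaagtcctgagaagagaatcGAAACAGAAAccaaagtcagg
PARP14 (chr3:122399637-122399685, plus strand, copy at -29): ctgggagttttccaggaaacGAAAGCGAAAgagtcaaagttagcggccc
HERC5 (chr4:89378176-89378225, plus strand, copy at -74): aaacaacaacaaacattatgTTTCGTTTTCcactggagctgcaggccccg
These stretches lie upstream of each gene's reference start, and only that of IFIT1 touches an annotated exon, by 4 bases. Each holds the upstream copy nearest the start, and IFIT3, IFI6, IFIH1 and HERC5 had further copies that lie outside the stretch. The copies of IFIT1 have the same orientation, those of IFI27 have opposite orientations, and those of ISG15 share bases. PARP9 and DTX3L, which code for partner proteins and are read away from each other from starts 38 bases apart, share 1 ISRE at chr3:122283179-122283188.

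In these counts EN1 itself did not fall with the labels. The paper, by contrast, describes EN1 as depleted in SUIT2 by both constructs and measured its RNA there by RT-qPCR. It also reports many differentially expressed genes in SUIT2 after knockdown, at a threshold it does not state for this line. EN1 stood at 4.098, 4.504, 4.94 and 2.51 CPM in shScr, 5.77 and 5.41 CPM in shEN1 #1, and 1.35 and 6.698 CPM in shEN1 #2. The library labelled shEN1 #2 replicate 1 held the lowest value, shScr 4 held the next lowest, and the other 3 shEN1 libraries were above every shScr library. Against shScr, EN1 in shEN1 had a log2 fold change of 0.26 ± 0.43 (SE; adjusted p = 1.0, edgeR quasi-likelihood test with Benjamini-Hochberg adjustment over all 14333 genes). Libraries are therefore called by their labels throughout, and no direction here can be read as an effect of lower EN1. The first principal component of log2 CPM (CPM, a gene's reads scaled to the library size), with 44.4% of the variance, had shScr 4 and shEN1 #2 replicate 1 far from the remaining 6 libraries. The second, with 17.5%, had shScr 3 and shEN1 #1 replicate 1 at its upper end. Library totals ran from 33423590 to 37810604 counts. All 7 epithelial markers were present in every library, with a summed level of 11730 to 15960 CPM in shScr and 11460 to 18610 CPM in shEN1. Leukocyte markers summed to 1.23 to 2.05 CPM in shScr and 0.965 to 2.62 CPM in shEN1, with 5 of 8 (PTPRC, CD3E, LST1, TYROBP and SPI1) at 0 counts in all libraries. Fibroblast markers summed to 1.27 to 4.28 CPM and 1.17 to 2.86 CPM, with COL1A2, COL3A1, DCN, LUM and THY1 at 0, and endothelial markers to 0.316 to 0.603 CPM and 0.364 to 0.737 CPM, with CDH5 and KDR at 0.

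The interferon response genes spanned a wide range of levels in these SUIT2 cells, all of which had been given an shRNA. Set per kilobase of the canonical transcript, the membrane protein IFITM3 was the most abundant member (455 CPM per kb), followed by ISG15 (100.4 CPM per kb), the virion tether BST2 (70.6), IFITM1 (42.3), the ubiquitin ligase TRIM25 (41.9) and OAS3 (28.1). The scarcest tested members were SAMD9L (0.428 CPM per kb) and IFI44L (0.112 CPM per kb). Across members, 25 of 41 stayed above 10 CPM in every library, and IFI44L was the only tested member below 1 CPM in any of them. Members varied between libraries more than most genes did: the standard deviation (SD) of log2 CPM over the 8 libraries had a median of 0.42 over members and 0.26 over all tested genes, and 35 of 41 members (85.4%) were above the median of all genes. Without shScr 3, shScr 4 and replicate 1 of both constructs these medians were 0.25 and 0.18. For 25 members the highest library was at least 2-fold above the lowest.

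The members, like nearly all tested genes, did not separate the labels. In none of the 41 did the 4 shEN1 libraries lie all above or all below the 4 shScr libraries, an arrangement seen in 0.419% of all genes. The highest library was shScr 3 for 18 of 41 members and shEN1 #1 replicate 1 for another 9, whereas these libraries were the highest for 14.6% and 14.0% of all genes. The lowest library was shEN1 #1 replicate 2 for 13 members (31.7%; 9.52% of all genes) and shEN1 #2 replicate 1 for 13 members (31.7%; 16.3% of all genes). The median member stood 0.43 above its own mean log2 CPM in shScr 3 and 0.30 above it in shEN1 #1 replicate 1. It stood at -0.33 in shEN1 #1 replicate 2, at -0.27 in shScr 4 and at -0.25 in shEN1 #2 replicate 1. With the constructs pooled, shScr and shEN1 thus each held libraries at both ends. The medians over all genes lay between 0.000426 and 0.0174 in the same libraries.

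**Figure D1:**
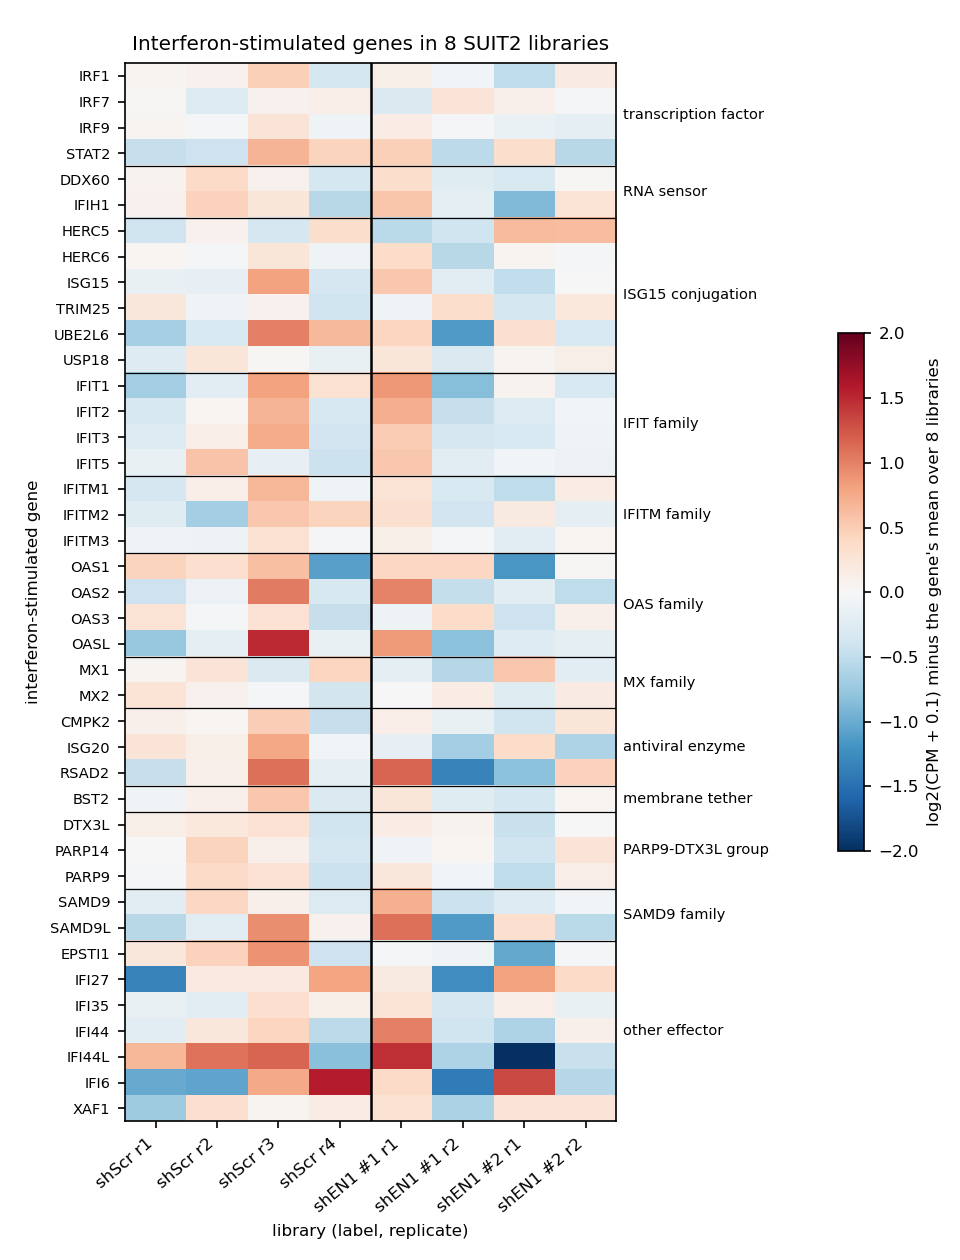
Heat map of the 41 tested interferon-stimulated genes (rows, grouped by role) in the 8 libraries (columns; the thick line parts shScr from shEN1). Colour gives log2(CPM + 0.1) minus the gene's mean over the 8 libraries, cut at 2 in either direction, with red for higher. The columns of shScr r3 and shEN1 #1 r1 are red for most rows, those of shScr r4, shEN1 #1 r2 and shEN1 #2 r1 are blue for many, and IFI44L in shEN1 #2 r1 is at 0 counts.

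**Figure D2:**
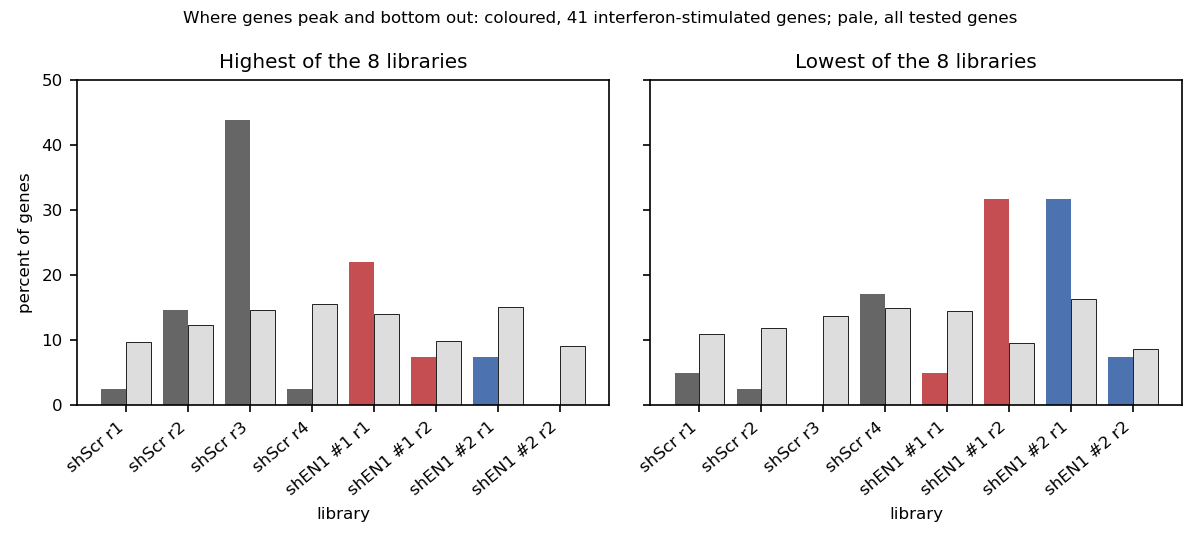
Percent of genes whose highest (left) or lowest (right) CPM of the 8 libraries falls in each library. Coloured bars are the 41 tested interferon-stimulated genes (grey shScr, red shEN1 #1, blue shEN1 #2) and pale bars are all 14333 tested genes. Members peak in shScr r3 in 43.9% of cases against 14.6% of all genes, and are lowest in shEN1 #1 r2 and shEN1 #2 r1 in 31.7% each.

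The IFIT proteins bind viral RNA and hold back its translation, and their genes lie close together on chromosome 10, from IFIT2 (chr10:91043451-91069028) to IFIT5 (chr10:91174325-91181362). Values below are CPM in shScr 1 to 4, then in replicates 1 and 2 of shEN1 #1 and of shEN1 #2. IFIT1 was at 8.14, 11.4, 23.1 and 16.3 CPM in shScr, 24.2 and 7.297 CPM in shEN1 #1, and 13.9 and 10.7 CPM in shEN1 #2. IFIT2 measured 13.6, 17.4, 27.4 and 13.7 CPM in shScr, 28.3 and 12.4 CPM in shEN1 #1, and 14.05 and 16.4 CPM in shEN1 #2. IFIT3 was found at 21.2, 28.2, 42.7 and 19.6 CPM in shScr, 36.4 and 20.3 CPM in shEN1 #1, and 20.6 and 23.97 CPM in shEN1 #2. For all of these, shScr 3 and shEN1 #1 replicate 1 were the 2 highest libraries, and the label groups overlapped. IFIT5 stood at 14.04, 23.2, 13.9 and 11.5 CPM in shScr, 22.6 and 13.4 CPM in shEN1 #1, and 15.01 and 14.2 CPM in shEN1 #2. In IFIT5, by contrast, shScr 2 was the highest and shScr 3 lay among the lower libraries, so that the cluster did not move as 1 block. The log2 fold change of IFIT1 in shEN1 against shScr was -0.07 ± 0.40 (SE; adjusted p = 1.0), and it was 0.23 without shScr 3.

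The same pair of libraries stood out across ISGs of other kinds. In 17 of 41 members (41.5%) shScr 3 and shEN1 #1 replicate 1 were the 2 highest libraries, against 7.05% of all tested genes, and in no member were they the 2 lowest (6.83% of all genes). These members were IFIT1, IFIT2, IFIT3, IFI35, IFI44, IFI44L, IFITM1, IFITM3, ISG15, OAS2, OASL, STAT2, IRF9, HERC6, SAMD9L, BST2 and RSAD2. Since the libraries were noted for their place in all genes, and members of 1 pathway vary together, the count describes these libraries and was not tested. In bulk RNA a change in the share of responding cells and a change in RNA per cell cannot be told apart.

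ISG15 is a ubiquitin-like protein that is secreted or joined to other proteins, UBE2L6 is the enzyme that carries it, HERC5 and TRIM25 are ligases that attach it, and USP18 removes it and also damps signalling at the interferon receptor. ISG15 was at 55.05, 54.4, 107 and 48.6 CPM in shScr, 88.5 and 52.99 CPM in shEN1 #1, and 43.4 and 61.6 CPM in shEN1 #2. UBE2L6 measured 9.85, 12.7, 31.4 and 24.6 CPM in shScr, 21.1 and 7.06 CPM in shEN1 #1, and 19.7 and 12.7 CPM in shEN1 #2. USP18 was found at 11.2, 15.9, 13.7 and 12.1 CPM in shScr, 15.8 and 10.95 CPM in shEN1 #1, and 13.8 and 14.6 CPM in shEN1 #2. ISG15 was highest in shScr 3 and shEN1 #1 replicate 1 and ran from 43.4 to 61.6 CPM in the other 6 libraries, UBE2L6 was also raised in shScr 4 and shEN1 #2 replicate 1, and USP18 stayed within 1.45-fold over all libraries. TRIM25 stood at 278, 226, 252 and 180.3 CPM in shScr, 226 and 303 CPM in shEN1 #1, and 186 and 273 CPM in shEN1 #2. TRIM25 ran lowest in shScr 4 and shEN1 #2 replicate 1, and shEN1 #1 replicate 2, the lowest library for many members, was its highest. The log2 fold change in shEN1 was -0.11 ± 0.29 for ISG15 and -0.38 ± 0.43 for UBE2L6 (SE; adjusted p = 1.0 for both), and that of ISG15 turned to 0.23 without shScr 3.

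HERC5 was the member whose values came closest to following a construct. HERC5 was at 5.72, 8.04, 5.998 and 9.72 CPM in shScr, 5.18 and 5.71 CPM in shEN1 #1, and 11.8 and 11.6 CPM in shEN1 #2. Both shEN1 #2 libraries lay above every other library, and both shEN1 #1 libraries lay below every shScr library, replicate 2 only barely under shScr 1. HERC5 in shEN1 #2 was at a log2 fold change of 0.67 ± 0.26 (SE) against shScr, with an unadjusted p = 0.028 and an adjusted p = 1.00 (edgeR), and at 1.11 ± 0.31 against shEN1 #1, with an unadjusted p = 0.0055 and an adjusted p = 1.00, so that neither difference passed the threshold over all genes. Over the other settings and left-out libraries the difference between the constructs stayed between 1.02 and 1.17, and its adjusted p between 0.73 and 1.0. The neighbouring gene HERC6 on chromosome 4 (chr4:89299891-89364249; HERC5 at chr4:89378270-89427314) did not share this order. HERC6 measured 21.9, 21.1, 25.3 and 20.2 CPM in shScr, 27.4 and 14.4 CPM in shEN1 #1, and 22.1 and 20.8 CPM in shEN1 #2.

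The 2′-5′-oligoadenylate synthetases sense double-stranded RNA and activate RNase L, apart from OASL, which lacks the enzymatic activity and acts with the sensor RIG-I. OASL was found at 13.5, 19.8, 64.2 and 20.4 CPM in shScr, 40.98 and 12.9 CPM in shEN1 #1, and 19.1 and 20.2 CPM in shEN1 #2. OAS2 stood at 8.74, 10.7, 24.05 and 9.24 CPM in shScr, 23.2 and 8.36 CPM in shEN1 #1, and 10.1 and 8.11 CPM in shEN1 #2. OAS1 was at 44.6, 41.3, 49.5 and 15.4 CPM in shScr, 43.6 and 43.8 CPM in shEN1 #1, and 14.5 and 33.2 CPM in shEN1 #2. OASL and OAS2 were highest in shScr 3 and shEN1 #1 replicate 1, whereas OAS1 stood between 41.3 and 49.5 CPM in 5 libraries and was lowest in shScr 4 and shEN1 #2 replicate 1. OAS3 measured 219, 176, 221 and 132 CPM in shScr, 170.0 and 233 CPM in shEN1 #1, and 136 and 194 CPM in shEN1 #2. OAS3 was likewise lowest in shScr 4 and shEN1 #2 replicate 1, and highest in shEN1 #1 replicate 2. OAS1, OAS3 and OAS2 are neighbours on chromosome 12 (chr12:113343661-113371024, chr12:113375856-113414265 and chr12:113416200-113449528), so that adjacent genes of the family differed in which libraries were high. The log2 fold change of OASL in shEN1 was -0.34 ± 0.52 and changed to 0.38 without shScr 3, while that of OAS1 was -0.16 ± 0.41 (SE; adjusted p = 1.0 for both, edgeR).

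**Figure D3:**
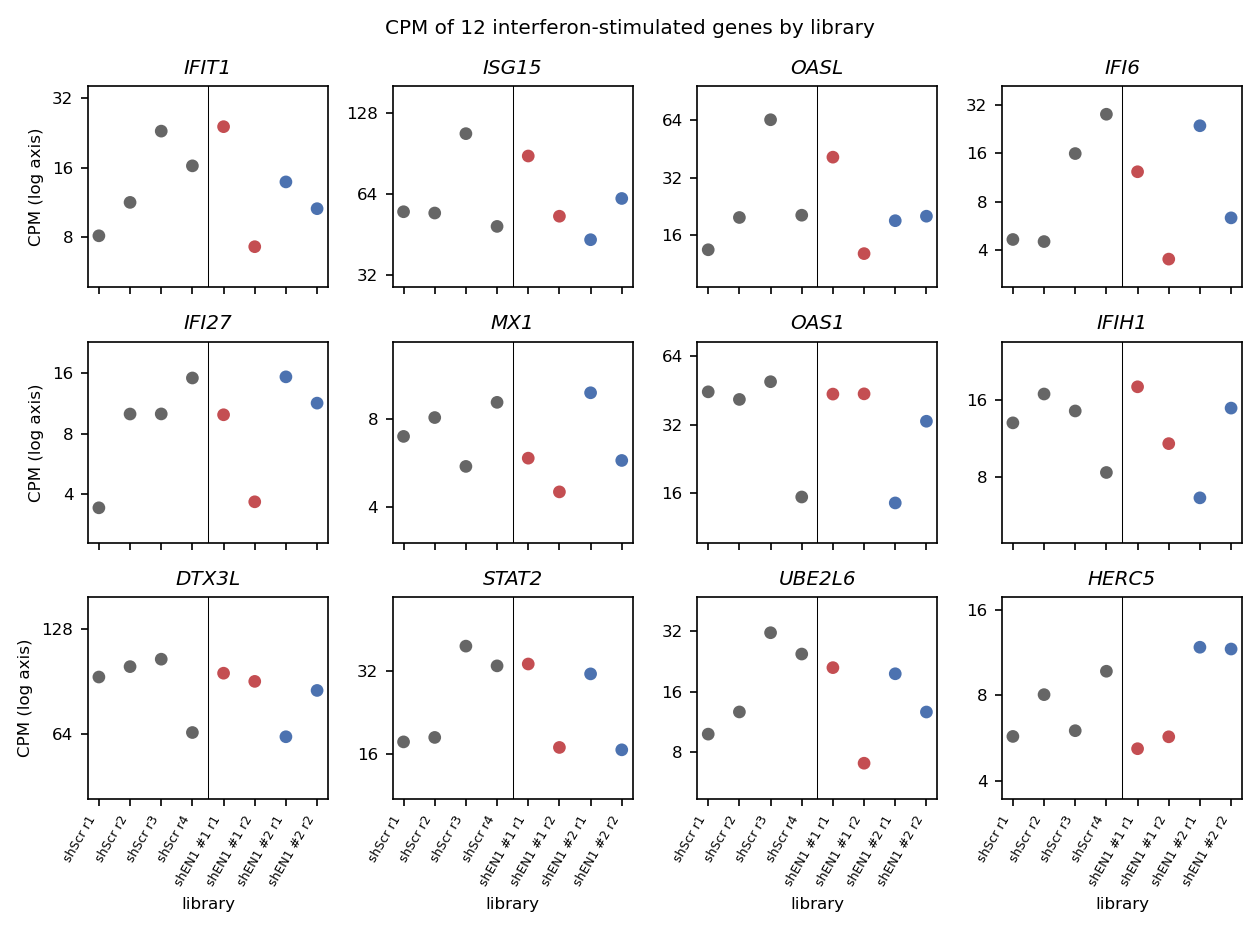
CPM of 12 interferon-stimulated genes in each library, on a log axis, with grey for shScr, red for shEN1 #1 and blue for shEN1 #2, and 1 point per library. ISG15 and OASL peak in shScr r3 and shEN1 #1 r1, IFI6 in shScr r4 and shEN1 #2 r1, and OAS1, IFIH1 and DTX3L are lowest in shScr r4 and shEN1 #2 r1.

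Another set of members, which shared some genes with the list above, was low in shScr 4 and shEN1 #2 replicate 1. These were the 2 lowest libraries for 16 of 41 members (39.0%), against 19.2% of all genes: IFI44, IFI44L, IFIH1, ISG15, MX2, OAS1, OAS3, IRF1, DDX60, PARP9, PARP14, TRIM25, BST2, CMPK2, EPSTI1 and DTX3L. The epithelial markers EPCAM, KRT7, KRT19, CDH1 and CLDN4 were also lowest in these libraries, KRT7 for example at 198 and 192 CPM where the other 6 libraries held 534 to 1080 CPM. The remaining 2 of the 7 markers were not: KRT8 and KRT18 were lowest in shScr 3 and shEN1 #1 replicate 1, KRT8 at 6279 and 6094 CPM and KRT18 at 3586 and 3628 CPM. The part of these markers in the result was not tested. IFIH1 codes for MDA5, a sensor of long double-stranded RNA. IFIH1 was found at 13.05, 16.9, 14.5 and 8.36 CPM in shScr, 18.04 and 10.8 CPM in shEN1 #1, and 6.66 and 14.9 CPM in shEN1 #2. Its levels in shScr 4 and shEN1 #2 replicate 1 lay below those of the other 6 libraries, whichever their label.

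PARP9 and DTX3L form a complex that adds ADP-ribose and ubiquitin to proteins, and PARP14 is a related enzyme. PARP9 stood at 40.2, 53.1, 49.7 and 30.2 CPM in shScr, 47.7 and 39.3 CPM in shEN1 #1, and 28.6 and 44.8 CPM in shEN1 #2. DTX3L was at 93.2, 99.7, 105 and 64.8 CPM in shScr, 95.5 and 90.5 CPM in shEN1 #1, and 63.00 and 85.3 CPM in shEN1 #2. PARP14 measured 105, 142, 112 and 81.7 CPM in shScr, 98.99 and 107 CPM in shEN1 #1, and 79.00 and 125 CPM in shEN1 #2. In all of them shScr 4 and shEN1 #2 replicate 1 were the 2 lowest libraries, and the other 6 ran from 39.3 to 53.1 CPM for PARP9, from 85.3 to 105 CPM for DTX3L and from 98.99 to 142 CPM for PARP14. BST2, or tetherin, holds budding virions at the cell surface. BST2 was found at 66.3, 74.7, 101 and 56.95 CPM in shScr, 82.1 and 58.8 CPM in shEN1 #1, and 54.4 and 71.2 CPM in shEN1 #2. Like ISG15, IFI44 and IFI44L, BST2 combined both patterns. It was highest in shScr 3 and shEN1 #1 replicate 1 and lowest in shScr 4 and shEN1 #2 replicate 1. EPSTI1, named for its induction in epithelial cells by stroma, had the smallest unadjusted p-value of all members in the pooled comparison. EPSTI1 stood at 4.25, 4.99, 6.83 and 2.697 CPM in shScr, 3.56 and 3.38 CPM in shEN1 #1, and 1.73 and 3.53 CPM in shEN1 #2. Its lowest libraries were again shEN1 #2 replicate 1 and shScr 4, its highest was shScr 3, and its log2 fold change was -0.62 ± 0.34 (SE; unadjusted p = 0.095, adjusted p = 1.0, edgeR).

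The opposite held for IFI6, IFI27 and MX1, the 3 members (7.32%) whose 2 highest libraries were shScr 4 and shEN1 #2 replicate 1, against 18.9% of all genes. IFI6 and IFI27 code for small hydrophobic membrane proteins, and MX1 for a GTPase that traps viral nucleocapsids. IFI6 was at 4.64, 4.504, 15.9 and 28.01 CPM in shScr, 12.3 and 3.501 CPM in shEN1 #1, and 23.8 and 6.33 CPM in shEN1 #2. IFI27 measured 3.405, 10.03, 10.04 and 15.2 CPM in shScr, 9.94 and 3.65 CPM in shEN1 #1, and 15.4 and 11.4 CPM in shEN1 #2. MX1 was found at 6.99, 8.12, 5.51 and 9.16 CPM in shScr, 5.88 and 4.502 CPM in shEN1 #1, and 9.88 and 5.78 CPM in shEN1 #2. IFI6 had the widest spread of all members with a mean of at least 1 CPM, and its order put shScr 4, shEN1 #2 replicate 1, shScr 3 and shEN1 #1 replicate 1 above the rest. The log2 fold change of IFI6 in shEN1 was -0.21 ± 0.71 (SE; adjusted p = 1.0, edgeR), and it was 0.46 without shScr 4. IFI27 was low in shScr 1 and shEN1 #1 replicate 2 alone, while MX1 showed a 2.195-fold range. Among the genes shown above with 2 or more ISRE copies in the window searched, peaks thus fell in different libraries. IFIT1, IFIT3 and ISG15 stood on one side, and IFI6 and IFI27 on the other. IFIH1 and HERC5 had neither of these library pairs as their 2 highest.

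The interferon-inducible transmembrane proteins block fusion of viruses with host membranes and their genes lie together on chromosome 11, IFITM2 at chr11:303655-309397, IFITM1 at chr11:310041-315272 and IFITM3 at chr11:319676-329475. IFITM1 stood at 21.8, 30.1, 43.6 and 25.9 CPM in shScr, 33.00 and 22.2 CPM in shEN1 #1, and 19.3 and 30.5 CPM in shEN1 #2. IFITM2 was at 9.97, 7.42, 17.4 and 16.1 CPM in shScr, 14.8 and 9.09 CPM in shEN1 #1, and 13.5 and 10.4 CPM in shEN1 #2. IFITM3 measured 263, 259, 344 and 269 CPM in shScr, 300.2 and 268 CPM in shEN1 #1, and 239 and 284 CPM in shEN1 #2. All 3 were highest in shScr 3, and IFITM3, the most abundant member, varied by only 1.44-fold over the 8 libraries. The IFITM genes are close copies of each other, so reads could be split between them. IFITM1 also shares 31.6% of its annotated exon bases with other GENCODE gene models, which the counting annotation may or may not hold. Exon bases were also shared with other gene models by IRF9 (27.1%), IFI6 (23.1%), IRF1 (22.9%), IFITM3 (16.3%) and IFIT2 (13.6%).

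RSAD2, or viperin, makes a nucleotide that stops viral polymerases, and SAMD9L restrains translation in infected cells. RSAD2 was found at 2.14, 3.21, 6.51 and 2.59 CPM in shScr, 6.81 and 1.12 CPM in shEN1 #1, and 1.65 and 4.15 CPM in shEN1 #2. SAMD9L stood at 1.81, 2.29, 5.22 and 2.86 CPM in shScr, 5.91 and 1.18 CPM in shEN1 #1, and 3.404 and 1.81 CPM in shEN1 #2. Both were low in absolute terms and peaked in shEN1 #1 replicate 1 and shScr 3, with shEN1 #1 replicate 2 the lowest library of each. IFI44, a cytoplasmic protein that is induced with its neighbour IFI44L, was high in shEN1 #1 replicate 1. IFI44 was at 23.4, 31.98, 36.7 and 18.9 CPM in shScr, 54.8 and 20.6 CPM in shEN1 #1, and 17.8 and 29.4 CPM in shEN1 #2. ISG20, an RNA exonuclease, is added here after its values were seen, as the member with the second smallest p-value in the pooled comparison. ISG20 measured 2.89, 2.62, 4.19 and 2.32 CPM in shScr, 2.13 and 1.47 CPM in shEN1 #1, and 3.15 and 1.54 CPM in shEN1 #2. Its log2 fold change in shEN1 was -0.53 ± 0.33 (SE; unadjusted p = 0.14, adjusted p = 1.0, edgeR), and 3 of 4 shEN1 libraries lay below every shScr library.

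The transcription factors of the response were among the steadier members, apart from STAT2. STAT2 was found at 17.8, 18.4, 39.3 and 33.4 CPM in shScr, 33.9 and 16.95 CPM in shEN1 #1, and 31.2 and 16.6 CPM in shEN1 #2. STAT2 lay between 31.2 and 39.3 CPM in shScr 3, shScr 4, shEN1 #1 replicate 1 and shEN1 #2 replicate 1 and between 16.6 and 18.4 CPM in the other libraries, so that each label group held libraries at both levels. Those 4 libraries were all above the other 4 in 7 members (IFIT1, IFI6, IFI35, IFITM2, STAT2, UBE2L6 and SAMD9L), or 17.1%, against 5.97% of all genes, and all below them in 1, MX2, or 2.44%, against 5.25% of all genes. IRF9 stood at 26.8, 25.1, 30.8 and 24.3 CPM in shScr, 28.4 and 25.2 CPM in shEN1 #1, and 23.6 and 22.6 CPM in shEN1 #2. IRF7 was at 14.4, 11.7, 15.04 and 15.5 CPM in shScr, 11.6 and 17.04 CPM in shEN1 #1, and 15.3 and 14.01 CPM in shEN1 #2. IRF9, the DNA-binding partner of STAT2, ranged over 1.36-fold, and IRF7, which drives interferon genes themselves, over 1.46-fold. IRF1 measured 56.2, 57.4, 74.95 and 42.1 CPM in shScr, 58.5 and 52.1 CPM in shEN1 #1, and 37.8 and 60.3 CPM in shEN1 #2. IRF1 was highest in shScr 3 and lowest in shEN1 #2 replicate 1 and shScr 4. The log2 fold change of STAT2 was -0.14 ± 0.33 (SE; adjusted p = 1.0, edgeR) in shEN1 and 0.09 without shScr 3.

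Upstream of the ISGs, interferon genes themselves were hardly detected. Of 21 ligand genes, 20 had 0 counts in all 8 libraries, and 3 counts, the limit that a count of 0 allows, correspond to 0.0762 to 0.0922 CPM per library. Such limits cover counting error only. IFNE, a type I interferon of epithelia and the only ligand gene counted, stood between 0.189 and 1.52 CPM, with the highest value in shEN1 #2 replicate 1. The receptor and kinase genes were present throughout. IFNAR1 was found at 50.1, 51.7, 45.7 and 42.7 CPM in shScr, 48.5 and 43.5 CPM in shEN1 #1, and 47.8 and 43.3 CPM in shEN1 #2. IFNAR2 stood at 13.2, 14.02, 18.8 and 21.2 CPM in shScr, 19.5 and 15.1 CPM in shEN1 #1, and 23.4 and 12.9 CPM in shEN1 #2. IFNAR2, a chain of the type I interferon receptor, was highest in shEN1 #2 replicate 1 and shScr 4, while its partner chain IFNAR1 stayed within 1.21-fold. JAK1 was at 204, 244, 205 and 267 CPM in shScr, 222 and 212 CPM in shEN1 #1, and 274 and 209.6 CPM in shEN1 #2. RIGI measured 33.7, 38.2, 41.5 and 39.8 CPM in shScr, 46.1 and 38.1 CPM in shEN1 #1, and 42.6 and 30.6 CPM in shEN1 #2. JAK1, a kinase of the type I, II and III receptors, was highest in the same libraries as IFNAR2, and RIGI, the sensor of short double-stranded RNA, was highest in shEN1 #1 replicate 1. Other GENCODE gene models share 27.7% of the annotated exon bases of IFNAR2 and 43.2% of those of RIGI. Whether the counting annotation held these models was not given, so their effect on the counts is not known. Of 66 such pathway genes outside the 42, 46 were tested. In shEN1 against shScr 26 of them had a log2 fold change above 0 and 20 below it, with a median of 0.01. By edgeR 0 passed at an adjusted p below 0.05 (0.0% of all genes). At an unadjusted p below 0.05 there were also 0 (0.307% of all genes).

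The design asks whether ISG levels differ between shEN1 and shScr, and in the 4 libraries against 4 no member did so by the test. By edgeR 0 of 41 members were called at an adjusted p below 0.05, where the share over all 14333 genes was 0.0%, and 0 had an unadjusted p below 0.05 (0.307% of all genes). DESeq2 also called 0 members, and 2 of all 14333 genes. The log2 fold change was below 0 in 30 members and above 0 in 11, against 51.1% of all genes below 0. Its median was -0.09 over members and -0.0028 over all genes, and it ranged from -0.69 to 0.22. These counts depended on single libraries of both labels. The count above 0 was 28 of 41 without shScr 3 (median 0.06), 18 without shEN1 #2 replicate 1 and 17 without shEN1 #1 replicate 2, and it was 7 without shScr 1, without shScr 4 or without shEN1 #1 replicate 1. Leaving out shScr 4 and shEN1 #2 replicate 1 gave a median of -0.12, leaving out shScr 3 and shEN1 #1 replicate 1 gave -0.10, and leaving out all 4 gave -0.11. Each time 0 members were called, where the calls over all genes were 1 of 14263, 0 of 14358 and 1 of 14273.

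The constructs compared one at a time gave different counts of signs and again no call. With shEN1 #1 against shScr, 0 members were called (0.0% of all genes), 0 had an unadjusted p below 0.05 (0.656% of all genes), and 18 were below 0 (51.7% of all genes) with a median log2 fold change of 0.01. With shEN1 #2 against shScr, 0 were called (0.0% of all genes), 1 member, HERC5, had an unadjusted p below 0.05 (0.3% of all genes), and 34 were below 0 (51.9% of all genes) with a median of -0.21. Between the constructs, shEN1 #2 against shEN1 #1, 0 were called (0.0% of all genes), HERC5 alone had an unadjusted p below 0.05 (1.07% of all genes), and 29 were below 0 (49.7% of all genes) with a median of -0.20. DESeq2 called 0 members in each of these comparisons, and 3, 0 and 0 of all 14333 genes in the same order. The comparisons share the shScr libraries. Replicate 1 of shEN1 #1 was the highest library for 9 members and its replicate 2 the lowest for 13, while replicate 1 of shEN1 #2 was the lowest for another 13. The interval of these differences is wide: the SE of IFI6 was 0.71 and that of OASL 0.52 on the log2 scale in the pooled comparison, and a p-value that missed the threshold does not show that levels were alike.

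**Figure D4:**
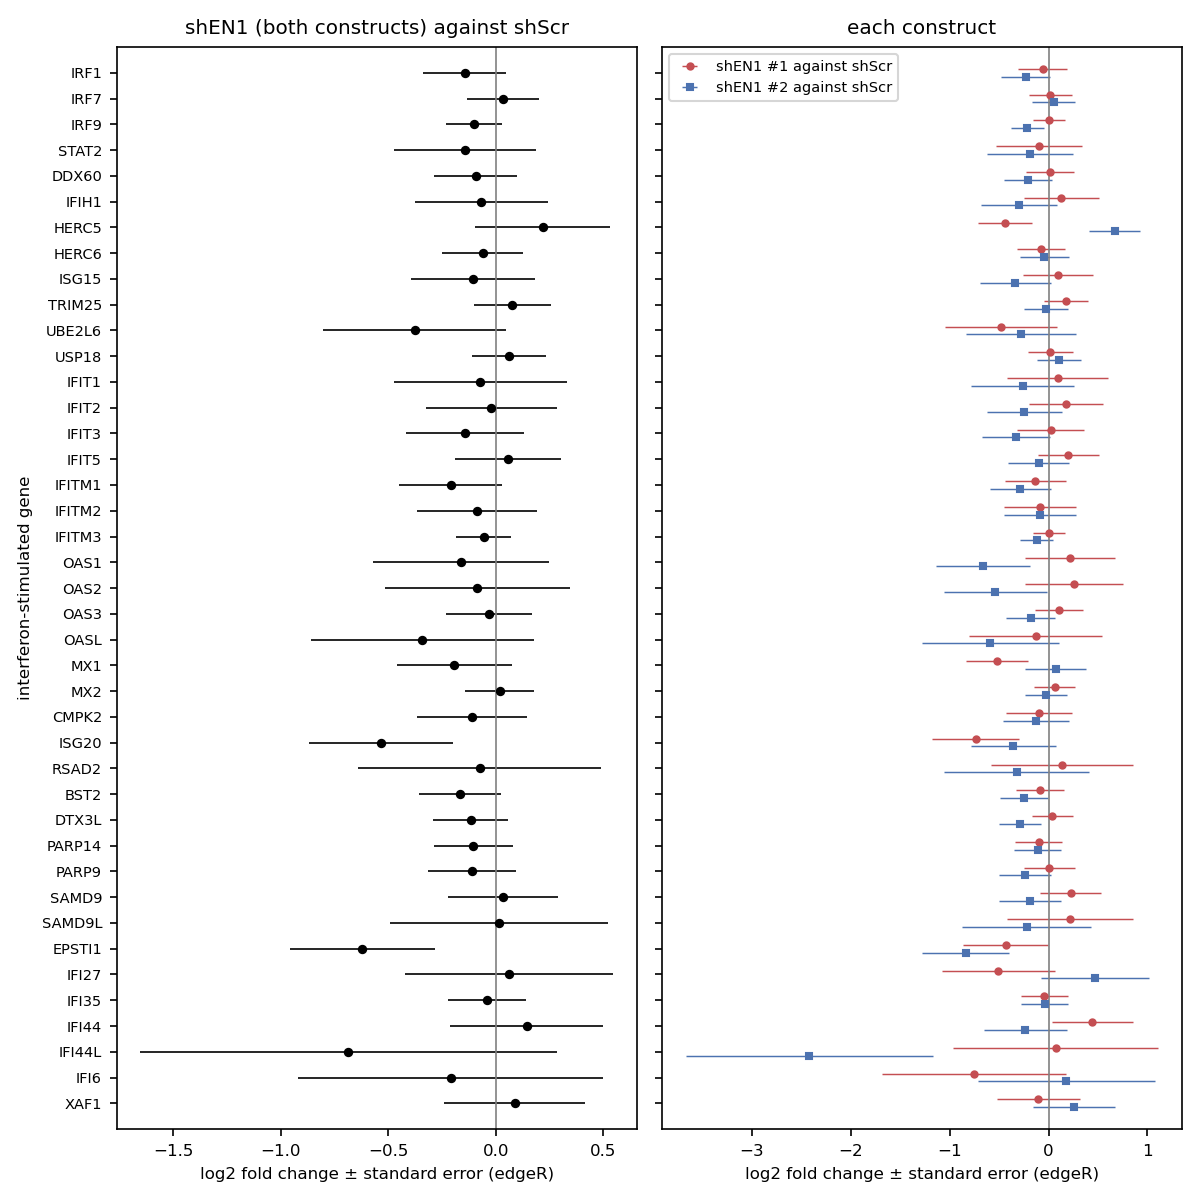
Log2 fold change ± SE (edgeR) of the 41 tested interferon-stimulated genes against shScr, with both constructs pooled (left, black) and for each construct (right, red circles shEN1 #1, blue squares shEN1 #2). In the pooled comparison 30 points lie left of 0 and 11 right of it, none passed the adjusted threshold, and HERC5 lies left of 0 for shEN1 #1 and right of it for shEN1 #2.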

How the data were processed

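RNA from 8 SUIT2 libraries (4 shScr, 2 shEN1 #1, 2 shEN1 #2, grouped by title) was measured by RNA-seq. The deposited values were raw gene-level counts, which the authors obtained with HISAT2 on hg19 and featureCounts. The versions, annotation and strand setting were not given in the sources used here, so genes that overlap, such as CMPK2 and RSAD2, could share reads. The labels list mm9, and the methods hg19. Counts were tested with edgeR 4.0.16 in R 4.3.3 over the 14333 genes that passed filterByExpr (minimum count 10), with TMM factors, glmQLFit with robust estimation and a Benjamini-Hochberg adjusted p below 0.05. The code was tested on simulated data. SEs were taken from the F statistic (|log2 fold change| / √F). CPM were scaled to TMM library sizes. A fit with 3 groups compared the constructs. DESeq2 1.42.0, other scalings, no filter, a replicate block and left-out libraries were alternatives. Promoters and positions were read from GRCh37 with GENCODE's lifted annotation.

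The members and lists were chosen with earlier results of these data known. Genes named with values were members with an unadjusted p below 0.05 in any comparison, the 12 members with a mean of at least 1 CPM and the largest SD of log2 CPM (prior count 2), members and pathway genes fixed by role, and EN1. CMPK2, DDX60, HERC6, IFI35, IFI44L, IFNE, ISG20, MX2, TRIM22, XAF1 and the markers named were added after their values were seen, because a count, a limit or a comparison turned on them. A pathway gene fixed by role is not reported here by name.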

Additional observations from a re-analysis of the deposited data

Results flagged for a closer look

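Each member was checked for 1 library standing apart within the 4 shScr libraries and within the 4 shEN1 libraries, which gave 86 sets of 4 values (EN1 included). If the sets were independent, chance alone would give about 1 in 20, or 4.3. Members vary together across libraries, so this number is no firm yardstick for the count found. Of the sets, 7 stood apart. In shScr, 4 of them were the same library, shScr 3. OASL was at 64.3 CPM there, where the other shScr libraries held 13.5 to 20.4 CPM, ISG15 at 107.0 CPM against 48.6 to 55.0 CPM, OAS2 at 24.1 CPM against 8.74 to 10.7 CPM, and IFITM3 at 343.5 CPM against 259 to 269 CPM. In shEN1, OAS2 was at 23.2 CPM in shEN1 #1 replicate 1, where the other libraries held 8.11 to 10.1 CPM. XAF1, a proapoptotic interferon-stimulated gene, was at 1.62 CPM in shEN1 #1 replicate 2 against 3.10 to 3.19 CPM. EPSTI1 was at 1.73 CPM in shEN1 #2 replicate 1 against 3.38 to 3.56 CPM.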

How the results depend on the processing

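The alternative runs were other scalings, DESeq2, no filter, a replicate block and left-out libraries. In each, 0 members and 0 pathway genes were called in the pooled comparison. Hardly any gene was called there: 2 of all 14333 with DESeq2, 1 with the replicate block, and at most 1 in any run with left-out libraries. With all 8 libraries kept, 0 members were called in the other comparisons too, where at most 3 of all genes passed. Calling by unadjusted p below 0.05 gave 1 member, HERC5, for shEN1 #2 against shScr and 1, HERC5, for shEN1 #2 against shEN1 #1. The number of members above 0 in the pooled comparison was 11, and 7 to 28 with 1 library left out, highest without shScr 3. The median log2 fold change ran from -0.24 without shEN1 #1 replicate 1 to 0.06 without shScr 3. With the replicate block 21 members were above 0 and the median was 0.02, while the signs reversed for ISG15 (0.17), IFIT1 (0.38), OASL (0.39), IFI6 (0.97), STAT2 (0.34) and UBE2L6 (0.29). Only shScr holds replicates 3 and 4, so the block fitted shScr 3 and shScr 4 exactly. Of the shScr libraries, only shScr 1 and shScr 2 then entered the comparison. Deviations of same-numbered libraries from their group means correlated at -0.33 to 0.44. With 2 libraries per construct these values are not independent, so they cannot decide whether the numbers pair the libraries. In all, 18 of 41 members changed sign under the block. With 1 library left out, fold changes on the log2 scale lay between -0.33 and 0.23 for ISG15, -0.47 and 0.23 for IFIT1, -0.76 and 0.38 for OASL, -0.42 and 0.091 for OAS1, -0.84 and 0.46 for IFI6, and -0.33 and 0.090 for STAT2. Without shScr 3, shScr 4 and replicate 1 of both constructs ISG15 was at 0.064 and IFI6 at 0.10. The cause of these changes was not tested. A total of 8 members (DTX3L, EPSTI1, HERC5, IFI44L, IRF9, ISG20, MX1 and UBE2L6) had the same sign with each library left out in turn. Depth limits IFI44L and TRIM22, whose counts were at or near 0 in several libraries.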
